A study of Mus musculus with 9 samples.

Results

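The MS4A (membrane-spanning 4-domains, subfamily A) genes examined here were Ms4a4a, Ms4a4c, Ms4a6b, Ms4a6c, Ms4a6d and Ms4a7, 6 of the 53465 genes counted by RNA-Seq. Each symbol stood on a single row or, where it stood on several, the row with most reads was kept. The members had been chosen from their expression in these same comparisons, so their levels and fold changes below are a description and carry no test. RNA-Seq was performed on 9 libraries of mouse bone marrow derived macrophages (BMDMs), marrow cells from male C57BL/6 mice grown in 50 ng/ml of CSF1. There were 3 libraries of untreated cells (UNX), 3 of cells given medium conditioned by pulmonary artery adventitial fibroblasts of control calves (CO-CM), and 3 of cells given the same kind of medium from fibroblasts of calves with hypoxia-induced pulmonary hypertension (PH-CM). Each medium was a pool from 5 fibroblast populations, so replicates do not stand for single fibroblast populations. The experiment was repeated 3 times, and the replicates were taken as repeats of the macrophage culture. Whether each repeat had a new pool is not stated. The fibroblasts were bovine and the responding cells murine. By the methods, the fibroblasts grew with bovine calf serum, and fetal bovine serum was added to their medium before use. No group received such medium kept without fibroblasts, so the part of serum or spent medium in comparisons with UNX cannot be told apart. Sources differ on how long the media were left on the cells (16 h or 24 h in the labels, 18 h in the methods).

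MS4A proteins are small tetraspanning membrane proteins that sit in the plasma membrane and endosomes and associate with other receptors, changing their traffic and signaling. The best known are Ms4a1, the B cell antigen CD20, and Ms4a2, the beta chain of the high-affinity IgE receptor of mast cells. The members described here belong to the MS4A4, MS4A6 and MS4A7 branches, which are found in monocytes and macrophages, and human genes of these branches lie at a locus linked to the risk of Alzheimer disease. MS4A4A has been placed beside the beta-glucan receptor Dectin-1 (Clec7a) and is linked to the level of soluble TREM2, while Ms4a6d has been described with Vsig4 as a restraint on the NLRP3 inflammasome.

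The 6 members lay on chromosome 19 (GRCm38) within 283.81 kb of the MS4A gene cluster. From one end, Ms4a7 (chr19:11321039-11336146, minus strand) was followed by Ms4a4a (chr19:11375523-11392790, plus), Ms4a4c (chr19:11404770-11427246, plus), Ms4a6c (chr19:11469366-11482192, plus), Ms4a6b (chr19:11516512-11531256, plus) and Ms4a6d (chr19:11586604-11604849, minus). In the coding sequences, Ms4a6b and Ms4a6c were identical at 85.0% of 642 aligned bases, Ms4a6b and Ms4a6d at 80.6% of 731, and Ms4a6c and Ms4a6d at 77.0% of 647. Ms4a4a, in contrast, matched Ms4a4c at 65.7% of 650 aligned bases and Ms4a7 at 52.2% of 684. No stretch of 150 bases, the length of a read, was shared between the transcripts of any 2 members, so a full-length read that matched exactly could be given to 1 member.

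The bases upstream of the RefSeq starts (GRCm38.p6) are shown for 4 members because the results turn on the contrast between them: Ms4a6b and Ms4a6c are close paralogs with unlike values in CO-CM, and Ms4a4a and Ms4a7 were the members furthest above UNX in CO-CM. Capitals mark the longest run shared by Ms4a6c and Ms4a6b, and in Ms4a4a and Ms4a7 a match to a motif named after the sequences. Bases inside an annotated exon were left out, which removed the end of the Ms4a6c and Ms4a6b windows.
Ms4a6c, chr19:11469118-11469365, plus strand: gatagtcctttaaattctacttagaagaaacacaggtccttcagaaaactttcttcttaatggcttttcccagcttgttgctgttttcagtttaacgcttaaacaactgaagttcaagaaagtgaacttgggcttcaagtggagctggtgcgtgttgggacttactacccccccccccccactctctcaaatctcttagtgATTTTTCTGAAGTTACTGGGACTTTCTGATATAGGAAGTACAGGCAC
Ms4a6b, chr19:11518309-11518452, plus strand: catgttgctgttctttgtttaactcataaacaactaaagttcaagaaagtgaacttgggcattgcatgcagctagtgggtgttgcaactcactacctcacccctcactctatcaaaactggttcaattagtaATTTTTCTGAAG
Ms4a4a, chr19:11375238-11375487, plus strand: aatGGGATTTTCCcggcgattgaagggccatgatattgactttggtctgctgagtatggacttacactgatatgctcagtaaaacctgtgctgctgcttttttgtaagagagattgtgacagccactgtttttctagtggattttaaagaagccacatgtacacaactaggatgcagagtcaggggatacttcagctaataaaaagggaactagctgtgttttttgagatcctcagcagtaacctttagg
Ms4a7, chr19:11336147-11336396, minus strand: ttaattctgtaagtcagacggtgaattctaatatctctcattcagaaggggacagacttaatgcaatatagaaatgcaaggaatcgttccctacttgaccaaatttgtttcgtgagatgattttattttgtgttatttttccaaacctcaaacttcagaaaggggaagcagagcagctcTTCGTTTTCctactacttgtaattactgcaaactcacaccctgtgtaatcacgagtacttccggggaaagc
Ms4a6c and Ms4a6b shared 148 of 172 aligned bases in the 250 bases before their starts. Their longest shared run was 48 bases, which began 49 bases before the Ms4a6c start and 118 bases before the Ms4a6b start, so that the printed Ms4a6b window holds its first 12 bases. The run holds AGGAAGT, the ETS core bound by PU.1 and its relatives, and Ms4a6b holds it a second time on the other strand. On both strands, 7.69% of the 32851 promoters in the reference hold this core in the same 250 bases. The run also holds GGGANTTTC, searched for NF-kB, which Ms4a4a holds 247 bases before its start and which is in 0.941% of all promoters. With 1 further C at its end the motif was found in Ms4a4a alone among the members, and in 0.356% of all promoters. GAAANNGAA, part of the interferon-stimulated response element (ISRE), was found in Ms4a6b, Ms4a6c and Ms4a7 and in 7.13% of all promoters, and with 1 further A in none of the members and 2.98% of all. TGANTCA, searched for AP-1, stood 81 bases before a second RefSeq start of Ms4a7 and in 6.75% of all promoters. TTCNNNGAA (STAT), ACGTG (hypoxia response core), TTNNGCAA (C/EBP) and GAGGAAGT (PU.1), which contains the ETS core, were found in none of the members' windows and in 7.02%, 16.6%, 9.56% and 2.44% of all promoters. In Ms4a6b the ETS and NF-kB matches lie past the printed bases, inside an annotated exon. The RefSeq start of Ms4a6b lies inside the gene span given above. A match is only a match of letters and was not tested as a binding site. The table of promoters gave no entry for Ms4a6d.

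Sequencing gave 62017933 to 84314201 counted reads per UNX library, 68317274 to 73049365 per CO-CM library and 63493877 to 66935070 per PH-CM library. Macrophage identity was checked on 8 genes (Adgre1, Csf1r, Cd68, Fcgr1, Mertk, Itgam, Lyz2 and Cd14), all of which were detected, with a summed level of 11801 to 12595 CPM (counts scaled to a library of 1e+06 reads) in UNX, 18984 to 19939 in CO-CM and 21428 to 23236 in PH-CM. Lyz2 made up most of the sum, at 6844 to 7546 CPM in UNX, 12516 to 13016 in CO-CM and 14464 to 15645 in PH-CM. Cd14 was instead at 158 to 189 CPM in CO-CM, under its 286 to 334 in UNX, and Fcgr1 and Itgam overlapped between UNX and CO-CM. The sum was higher with each conditioned medium, and its part in the results below was not tested. Ms4a2, Mcpt4 and Tpsb2 of mast cells and Ly6g of neutrophils had no read in any library. The 5 mast cell markers summed to 1.54 to 3.31 CPM in UNX, 1.72 to 2.36 in CO-CM and 0.289 to 0.395 in PH-CM, nearly all of it Kit, and the part of this in the results was not tested. T and NK cell markers summed to at most 0.0316 CPM, and B cell markers to at most 1.02 CPM. Dendritic cell markers summed to at most 0.613 CPM and granulocyte markers to at most 3.51 CPM. The 5 fibroblast genes summed to 193 to 245 CPM in UNX, 261 to 313 in CO-CM and 243 to 331 in PH-CM. In bulk RNA a change in the share of cells that express a gene and a change in RNA per cell cannot be told apart.

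Of all members, Ms4a4a stood furthest from UNX in both media. Its level was 1.03, 1.24 and 1.37 CPM in the UNX libraries, 11.0, 11.8 and 11.2 in CO-CM, and 62.2, 83.6 and 79.5 in PH-CM. The groups did not overlap and formed steps, from close to the detection limit set here to a well expressed gene. The log2 fold change was 3.21 ± 0.14 (SE, n = 3 per group) for CO-CM against UNX, 5.93 ± 0.14 for PH-CM against UNX and 2.73 ± 0.11 for PH-CM against CO-CM, or 9.23-fold, 61.2-fold and 6.63-fold. Among the 11950 genes tested, 8 rose more than Ms4a4a from UNX to PH-CM, which placed it at rank 9, and at rank 14 from UNX to CO-CM. The UNX values rested on 67, 94 and 118 reads and those of PH-CM on 4188 to 5203.

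Ms4a7 also stood apart in both media, but with another balance between them. It was at 87.5, 88.1 and 76.5 CPM in UNX, 272, 251 and 231 in CO-CM, and 419, 435 and 419 in PH-CM. Every CO-CM library lay above every UNX library and below every PH-CM library. The log2 fold change was 1.58 ± 0.07 for CO-CM against UNX, 2.34 ± 0.07 for PH-CM against UNX and 0.76 ± 0.07 for PH-CM against CO-CM. Among the 5 expressed members, Ms4a7 was the one for which CO-CM came closest to PH-CM, which was 1.69-fold higher.

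Ms4a6b had a different pattern, with nearly its whole increase in PH-CM. Its values were 8.52, 11.8 and 9.89 CPM in UNX, 10.7, 12.7 and 11.5 in CO-CM, and 72.7, 89.4 and 91.3 in PH-CM. The UNX and CO-CM libraries overlapped, although CO-CM was above UNX within each replicate number, whereas the PH-CM libraries lay far above both. The log2 fold change was 0.21 ± 0.13 for CO-CM against UNX, 3.07 ± 0.13 for PH-CM against UNX and 2.86 ± 0.13 for PH-CM against CO-CM. From CO-CM to PH-CM this was the largest change among the members, 7.26-fold, at rank 44 of the 11950 genes.

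Ms4a6c and Ms4a6d moved together at different levels. Ms4a6c was at 23.1, 23.1 and 21.3 CPM in UNX, 35.4, 33.0 and 31.0 in CO-CM, and 92.2, 97.9 and 94.4 in PH-CM. Ms4a6d was at 80.1, 75.6 and 74.8 CPM in UNX, 125, 108 and 108 in CO-CM, and 298, 316 and 314 in PH-CM. In both genes the 3 groups were separate, with a small step to CO-CM and a larger one to PH-CM. The log2 fold changes of Ms4a6c were 0.56 ± 0.06 (CO-CM against UNX), 2.08 ± 0.06 (PH-CM against UNX) and 1.52 ± 0.06 (PH-CM against CO-CM). Those of Ms4a6d were 0.56 ± 0.06, 2.01 ± 0.06 and 1.45 ± 0.06 in the same order. Over the 9 libraries, which share these 3 groups, their log2 CPM had a Pearson r of 0.999, compared with 0.973 for Ms4a6c and Ms4a6b and 0.783 for Ms4a6b and Ms4a7. Of the exonic bases of Ms4a6c, 53.1% are also exonic in BE692007, a gene on the opposite strand. Its own reads numbered 194 to 272 in UNX, 370 to 391 in CO-CM and 797 to 906 in PH-CM. The counting options that the paper lists name neither strand nor overlapping genes. Reads over both genes cannot be told apart and may have been left out of both counts.

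Ms4a4c was barely detected, and it alone of the members did not reach 1 CPM in 3 libraries. It was at 0.431, 0.847 and 0.442 CPM in UNX, 0.234, 0.807 and 0.870 in CO-CM, and 0.847, 1.06 and 1.04 in PH-CM, from 16 to 66 reads per library. The groups overlapped in every comparison. Its log2 fold change was 0.77 ± 0.41 for PH-CM against UNX, 0.15 ± 0.43 for CO-CM against UNX and 0.62 ± 0.41 for PH-CM against CO-CM. Among libraries of the same replicate number, the PH-CM library was above the UNX and the CO-CM library in all 3 sets.

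**Figure D1:**
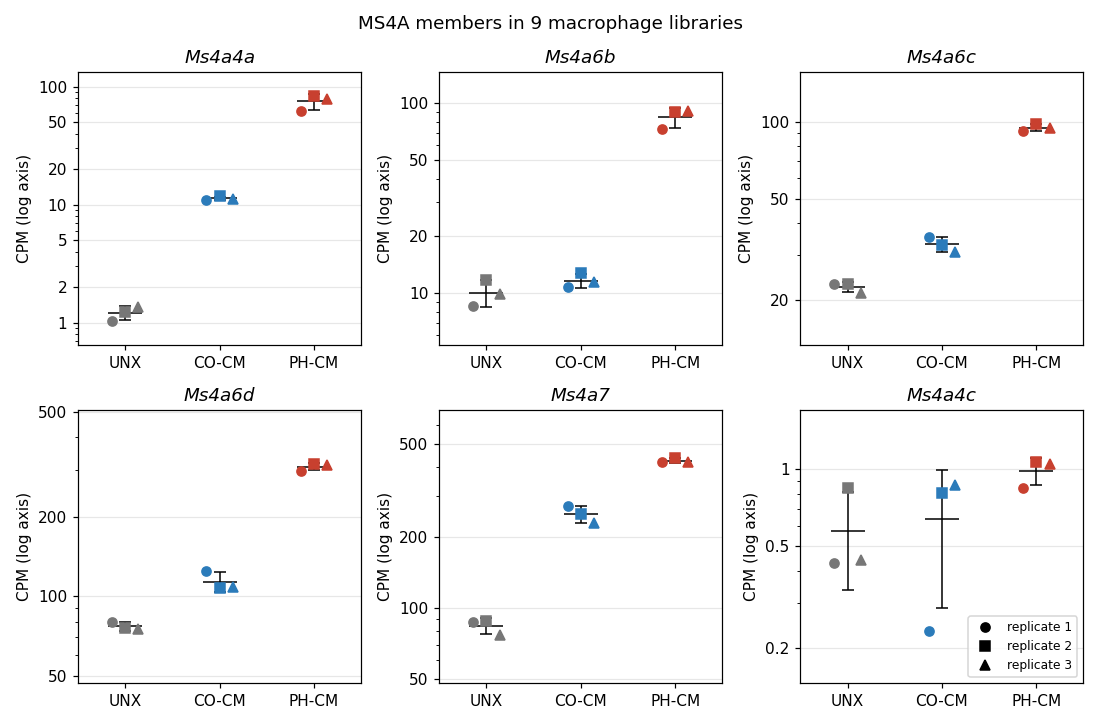
CPM of each MS4A member (log axis) in the 9 libraries by group; symbols mark the replicate number, and the black line and bar give the mean and SD of 3 libraries. Ms4a4a, Ms4a6c, Ms4a6d and Ms4a7 form 3 separate steps, Ms4a6b is high in PH-CM only against overlapping UNX and CO-CM values, and Ms4a4c overlaps throughout.

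Counted over all 6 members, 5 had every PH-CM library above every UNX library, 4 had every CO-CM library above every UNX library, and 5 had every PH-CM library above every CO-CM library. Of all tested genes, 38.9%, 35.4% and 23.9% did so in these comparisons, and since the members were chosen on them nothing is read from the difference. No member had all libraries of a conditioned medium below those of UNX. The median log2 fold change of all tested genes was 0.01 for PH-CM against UNX, near 0 as the TMM scaling centres it.

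Per length, the members kept a strict order at rest that each conditioned medium changed. In RPKM (reads scaled to exon length and library total) as deposited, the UNX means were 45.6 ± 2.3 (SD, n = 3) for Ms4a6d, 19.4 ± 1.7 for Ms4a7, 11.3 ± 0.61 for Ms4a6c, 2.31 ± 0.35 for Ms4a6b, 1.29 to 1.67 for Ms4a4a and 0.337 ± 0.14 for Ms4a4c, and no neighbours in this order overlapped. In CO-CM, Ms4a6d at 60.0 to 72.2 RPKM and Ms4a7 at 50.7 to 61.2 overlapped, and Ms4a4a at 13.1 to 13.6 had passed Ms4a6b at 2.40 to 2.74. In PH-CM, Ms4a6d stood at 173 to 179 RPKM, and Ms4a4a at 74.8 to 98.0 overlapped Ms4a7 at 92.6 to 95.7. Ms4a6c at 45.3 to 46.8, Ms4a6b at 18.6 ± 2.0 and Ms4a4c at 0.486 to 0.594 followed without overlap. Ms4a4a thus stood at rank 9561 among the tested genes in UNX and at rank 474 in PH-CM, counted from the highest RPKM. The annotation gives Ms4a4a 836 exonic bases, of which 708 are coding, against 4485 exonic bases for Ms4a6b. Any reads from an unannotated end of Ms4a4a would not be counted. Any reads left out where Ms4a6c shares exons with BE692007 would lower the RPKM of Ms4a6c.

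The summed RPKM of the members was 76.3 to 84.2 in UNX, 142 to 166 in CO-CM and 404 to 439 in PH-CM. Ms4a6d made up 56.7 ± 1.4% of it in UNX, 42.3 ± 1.3% in CO-CM and 41.6 ± 1.1% in PH-CM. Ms4a4a rose from 1.87 ± 0.33% to 8.8 ± 0.75% and 20.9 ± 2.1%. The share of Ms4a7 was largest in CO-CM, at 36.5 ± 0.78%, beside 24.1 ± 1.0% in UNX and 22.2 ± 1.0% in PH-CM. The ratio of Ms4a6b to its paralog Ms4a6c was 0.169 to 0.233 in UNX, 0.139 to 0.176 in CO-CM and 0.360 to 0.442 in PH-CM. That of Ms4a6c to Ms4a6d stayed between 0.240 and 0.262 over all 9 libraries. The shares and ratios that include Ms4a6c carry the limit named above for its RPKM.

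**Figure D2:**
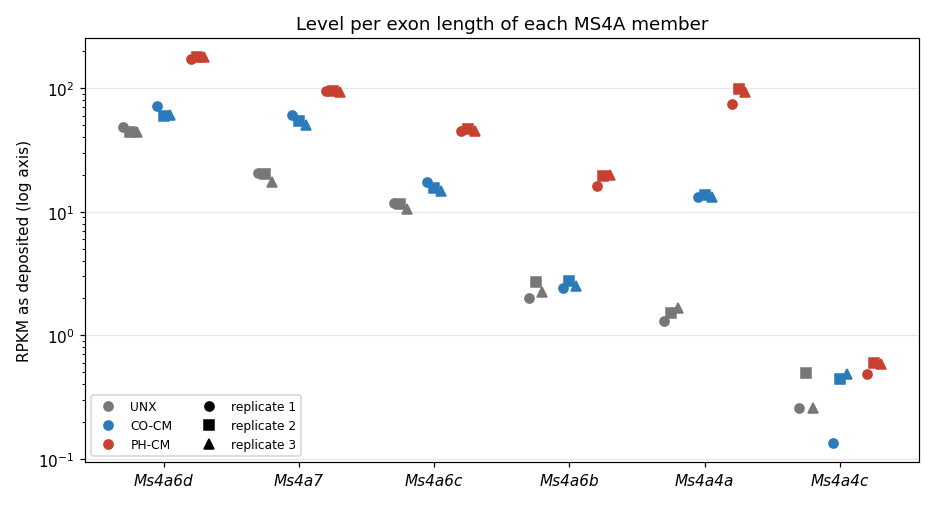
RPKM as deposited (log axis) of each member, coloured by group and shaped by replicate number. In PH-CM Ms4a4a lies at 74.8 to 98.0 beside Ms4a7, whereas in UNX it is the lowest member but Ms4a4c.

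Within groups the members did not vary alike. Ms4a4a and Ms4a6b were lowest in replicate 1 of all 3 groups, in PH-CM by 0.26 and 0.21 below the group mean on the log2 scale. Ms4a6d was instead highest in replicate 1 of UNX and CO-CM, by 0.06 and 0.14, and lowest in replicate 1 of PH-CM, by 0.05. The differences between groups of these genes were larger than the offsets, apart from the 0.21 between CO-CM and UNX for Ms4a6b.

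The lists compared below were drawn up with earlier results of these data known. The first was the rest of the family, which lay outside the members. The list held 16 genes, 15 of them analysed (Ms4a6e was not analysed here), and was compared by edgeR's quasi-likelihood test with Benjamini-Hochberg adjustment, where a call needs an adjusted p of at most 0.05 and a fold of at least 1.2. Only 3 of the 15 reached the detection limit, Ms4a14, Tmem176a and Tmem176b. In PH-CM against UNX 1 was called higher and 0 lower, while calls were made for 31.3% (higher) and 31.7% (lower) of all tested genes. In CO-CM against UNX 2 were higher and 0 lower, beside 28% and 28.9% of all genes, and in PH-CM against CO-CM 1 was higher and 1 lower, beside 12.2% and 15%.

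Ms4a14, the neighbour of Ms4a7, rose in all 3 comparisons. It was at 10.1, 12.3 and 10.5 CPM in UNX, 37.3, 32.6 and 30.7 in CO-CM, and 71.9, 72.9 and 75.8 in PH-CM, without overlap. The log2 fold change was 2.75 ± 0.09 for PH-CM against UNX (adjusted p = 2.28e-09), 1.62 ± 0.09 for CO-CM against UNX (adjusted p = 1.10e-07) and 1.13 ± 0.08 for PH-CM against CO-CM (adjusted p = 4.82e-06). Per length it stood at 0.126 to 0.152 of Ms4a7 in UNX, 0.143 to 0.150 in CO-CM and 0.184 to 0.198 in PH-CM. Ms4a14 codes for a longer MS4A protein, with a coding length of 3696 bases against 801 for Ms4a7.

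Tmem176b, a more distant relative that acts as an intracellular cation channel and lies on chromosome 6, rose with CO-CM and not with PH-CM. It was at 2.67, 4.01 and 3.78 CPM in UNX, 5.26, 6.81 and 5.42 in CO-CM and 3.06, 3.70 and 3.59 in PH-CM. The log2 fold change was 0.74 ± 0.17 for CO-CM against UNX (adjusted p = 0.00252) and -0.76 ± 0.17 for PH-CM against CO-CM (adjusted p = 0.00525). For PH-CM against UNX it was -0.02 ± 0.17 (adjusted p = 0.919). Its partner Tmem176a, whose gene overlaps it on the other strand so that reads there cannot be told apart, was at 1.33 to 2.26 CPM in all libraries and was not called, with adjusted p from 0.191 to 0.554.

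The other relatives were low or silent. Ms4a4b, known from T cells and the closest to Ms4a4c with 91.7% of 678 coding bases identical, was at 0.318 to 0.447 CPM in UNX, 0.225 to 0.344 in CO-CM and 0.885 to 1.21 in PH-CM. It did not reach the detection limit. Ms4a8a had 60 reads over the 9 libraries and Ms4a4d had 32. Ms4a1 and Ms4a12 had 4 reads each, Ms4a3 and Ms4a15 had 2 each, and Ms4a2, Ms4a5, Ms4a10, Ms4a13 and Ms4a18 had 0. A count of 0 over the 9 libraries allows up to 3 fragments at 95% confidence, for counting error only. The expressed genes of the cluster lay from Ms4a14 to Ms4a6d, flanked by Ms4a5 and Ms4a2 without a read.

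**Figure D3:**
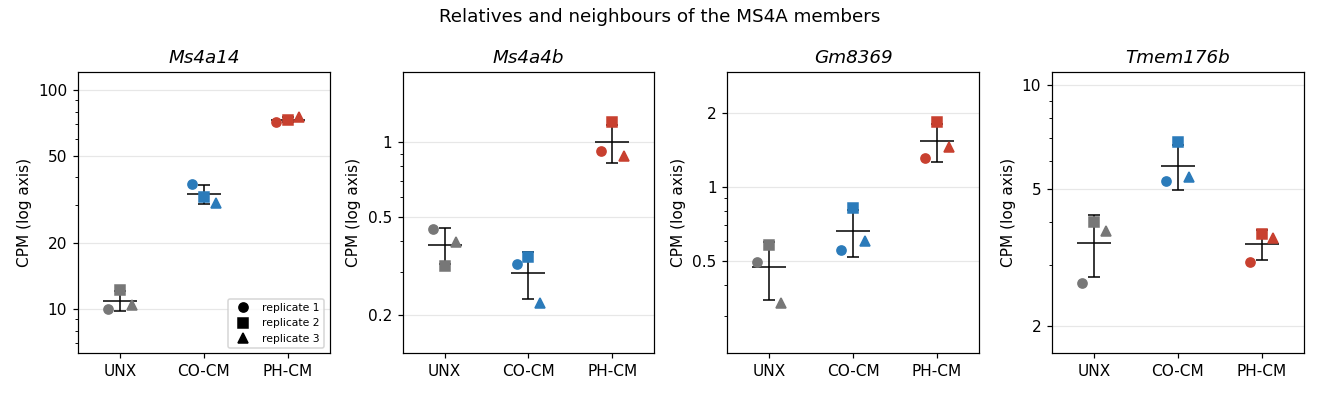
CPM (log axis) of Ms4a14, Ms4a4b, Gm8369 and Tmem176b in the 9 libraries, with mean and SD of 3. Ms4a14 climbs in 3 steps like Ms4a7. Ms4a4b and Gm8369 are highest in PH-CM, at 0.885 to 1.21 and 1.31 to 1.83 CPM, and Tmem176b is highest in CO-CM.

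Genes beside the cluster were then compared. Of 42 protein-coding genes with a start within 500 kb of the cluster that are not named Ms4a, 18 were expressed. Of these, 4 were called higher and 3 lower in PH-CM against UNX, 4 and 4 in CO-CM against UNX, and 3 and 2 in PH-CM against CO-CM, to be read against the shares of all genes given above. Their median log2 fold changes were 0.07, -0.02 and 0.03. Gm8369 lies inside the cluster between Ms4a6c and Ms4a6b and had 89.2% of 369 coding bases identical to Ms4a4c. It was at 0.493, 0.582 and 0.337 CPM in UNX, 0.555, 0.822 and 0.603 in CO-CM and 1.31, 1.83 and 1.45 in PH-CM. Only the PH-CM libraries were above 1 CPM, so Gm8369, which is among the neighbours called higher, passed the detection limit through the group where it is high. It rose in PH-CM by 1.71 ± 0.25 against UNX (adjusted p = 0.000114) and by 1.21 ± 0.24 against CO-CM (adjusted p = 0.00295), on the log2 scale. Against UNX, CO-CM gave 0.49 ± 0.27 (adjusted p = 0.124).

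Outside the cluster, the neighbours moved in both directions. Slc15a3, a lysosomal histidine and peptide transporter 102.9 kb before the cluster, rose by 1.26 ± 0.08 in PH-CM and 0.52 ± 0.08 in CO-CM against UNX (adjusted p = 1.97e-07 and 0.000165). It differed by 0.74 ± 0.08 between PH-CM and CO-CM (adjusted p = 5.13e-05). Tmem132a, which overlaps its end on the other strand, rose by 1.48 ± 0.07 and 0.57 ± 0.07 (adjusted p = 2.13e-08 and 2.95e-05) and by 0.90 ± 0.07 between PH-CM and CO-CM (adjusted p = 4.91e-06). Reads from the overlap of these genes cannot be told apart. Prpf19, a splicing factor 52.7 kb before the cluster and so nearer to it, fell by 0.95 ± 0.05 in PH-CM and by 0.60 ± 0.05 in CO-CM (adjusted p = 4.74e-08 and 1.89e-06). Cyb561a3, a lysosomal ferric reductase, rose by 0.73 ± 0.08 in PH-CM and 0.91 ± 0.08 in CO-CM (adjusted p = 1.45e-05 and 3.73e-06). None of these neighbours reached the log2 fold change of 2.01 of Ms4a6d in PH-CM against UNX. The member Ms4a4c, at 0.77, lay below Slc15a3 and Tmem132a. Since the members were chosen on this comparison, nothing is read from the difference.

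**Figure D4:**
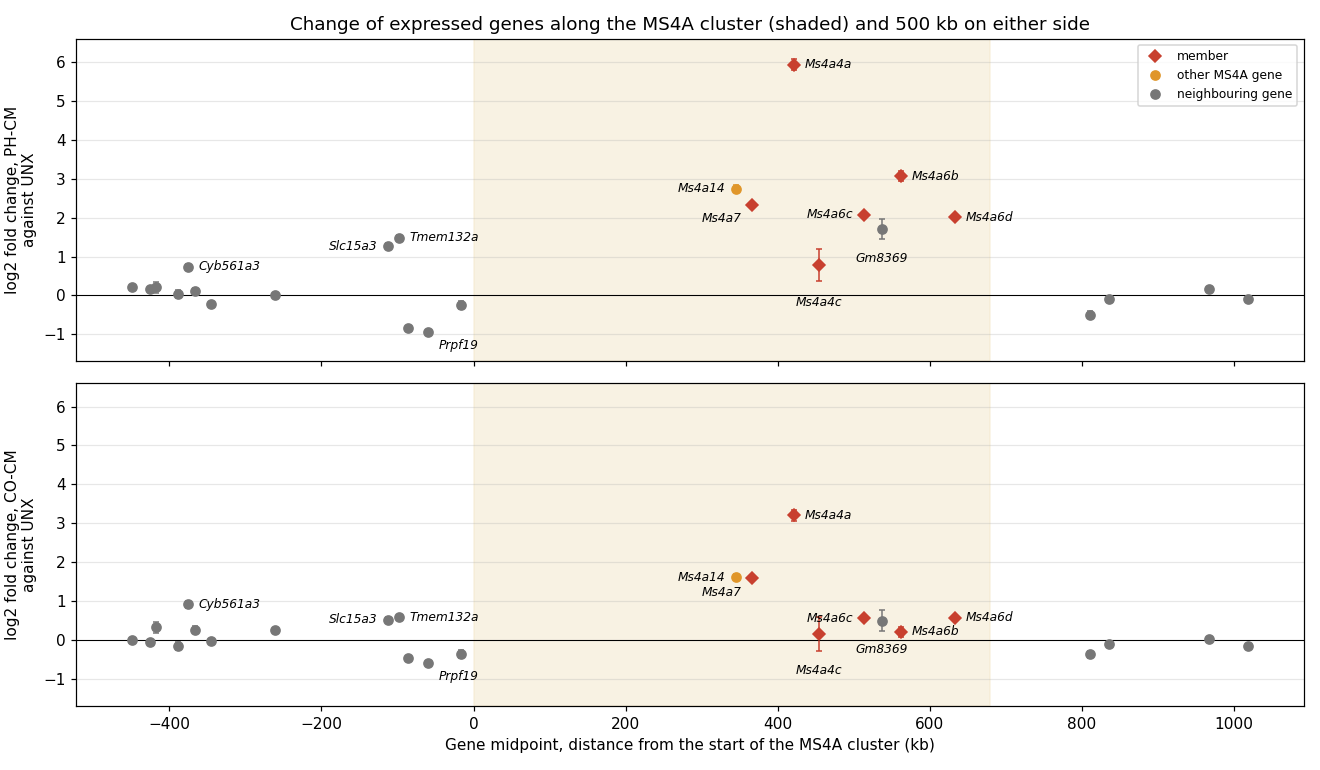
Log2 fold change with SE (n = 3 per group) of each expressed gene, and Ms4a4c, against the distance of its midpoint from the start of the MS4A cluster in kb; the shaded band is the cluster. Genes from Ms4a14 to Ms4a6d are above 0 in PH-CM against UNX, and those on either side lie between -0.95 and 1.48.

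Genes described with MS4A proteins as receptors, adaptors and targets formed the last list, of 15 genes with 13 tested. In PH-CM against UNX 4 were called higher and 3 lower, in CO-CM against UNX 5 and 3, and in PH-CM against CO-CM 4 and 5, to be read against the shares of all genes given above for each direction. The median log2 fold changes were -0.01, 0.12 and -0.04.

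The 2 receptors named with MS4A4A were higher in CO-CM than in UNX or PH-CM. Clec7a was at 17.5, 35.0 and 34.6 CPM in UNX, 72.4, 174 and 163 in CO-CM, and 21.9, 32.3 and 35.1 in PH-CM. It rose by 2.23 ± 0.35 with CO-CM (adjusted p = 0.000221) and was lower by -2.20 ± 0.35 in PH-CM against CO-CM (adjusted p = 0.000745). PH-CM against UNX gave 0.03 ± 0.34 (adjusted p = 0.939). Trem2, a lipid-sensing receptor of macrophages, was at 659, 708 and 730 CPM in UNX, 1087, 1195 and 1197 in CO-CM and 620, 639 and 665 in PH-CM. Its log2 fold change was 0.73 ± 0.06 for CO-CM against UNX (adjusted p = 1.89e-06), -0.86 ± 0.06 for PH-CM against CO-CM (adjusted p = 2.96e-06) and -0.12 ± 0.06 for PH-CM against UNX (adjusted p = 0.0786). Ms4a4a, by contrast, was 6.63-fold higher in PH-CM than in CO-CM.

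Signaling genes downstream of these receptors differed among themselves. Syk, the kinase that couples them, rose by 1.18 ± 0.06 in PH-CM and 0.88 ± 0.06 in CO-CM against UNX (adjusted p = 3.14e-08 and 3.84e-07), and by 0.30 ± 0.06 between PH-CM and CO-CM (adjusted p = 0.00211), where the call was lost without CO-CM replicate 3. Tyrobp, the adaptor DAP12 of Trem2, rose by 0.55 ± 0.07 in PH-CM and 0.66 ± 0.07 in CO-CM (adjusted p = 3.71e-05 and 1.29e-05). Card9, the Dectin-1 adaptor, rose by 0.44 ± 0.04 in PH-CM against UNX (adjusted p = 4.87e-06) and by 0.31 ± 0.04 in PH-CM against CO-CM (adjusted p = 0.000249). Lyn, a Src-family kinase, fell with CO-CM by 0.84 ± 0.06 (adjusted p = 7.74e-07) and was 0.60 ± 0.06 higher in PH-CM than in CO-CM (adjusted p = 3.63e-05). Its PH-CM against UNX value of -0.24 ± 0.06 was under the fold required, and was a call with library size alone (-0.30), with no filter (-0.29) and with filterByExpr (-0.28). Fcer1g, Plcg2 and Adam10 were not called in any comparison, with log2 fold changes between -0.17 and 0.19.

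Of the remaining partners, Nlrp3, Cdkn3 and Kit fell in PH-CM against UNX, and Adam17 rose. Nlrp3, the inflammasome sensor, was at 97.0, 76.1 and 75.8 CPM in UNX, 20.4, 27.0 and 24.1 in CO-CM and 40.3, 48.6 and 45.0 in PH-CM. It fell by 1.80 ± 0.12 with CO-CM and by 0.89 ± 0.12 with PH-CM (adjusted p = 5.88e-07 and 6.02e-05). Cdkn3, a phosphatase that binds MS4A3, fell by 2.67 ± 0.12 with PH-CM and 1.86 ± 0.11 with CO-CM (adjusted p = 1.77e-08 and 2.55e-07). Kit, the stem cell factor receptor, was at 1.54, 3.02 and 3.30 CPM in UNX, 1.72, 1.79 and 2.33 in CO-CM and 0.297, 0.257 and 0.316 in PH-CM. It fell by 3.17 ± 0.32 in PH-CM against UNX (adjusted p = 6.96e-06), whereas CO-CM gave -0.43 ± 0.26 (adjusted p = 0.155). Between PH-CM and CO-CM, Nlrp3 was higher by 0.90 ± 0.12 (adjusted p = 0.000264), Cdkn3 fell by 0.81 ± 0.12 (adjusted p = 0.000511) and Kit fell by 2.74 ± 0.33 (adjusted p = 0.000113). Adam17, a sheddase of Trem2, rose by 0.58 ± 0.06 with CO-CM (adjusted p = 1.06e-05), and its rise of 0.28 ± 0.06 with PH-CM (adjusted p = 0.00149) was at the edge of the fold required and was not called without UNX replicate 3 (0.23), with library size alone (0.22), with no filter (0.24) or with filterByExpr (0.24). It fell by 0.30 ± 0.06 from CO-CM to PH-CM (adjusted p = 0.00277), a call lost without CO-CM replicate 2. Vsig4 and Tnfrsf18, with 52 and 124 reads in all, were not tested.

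**Figure D5:**
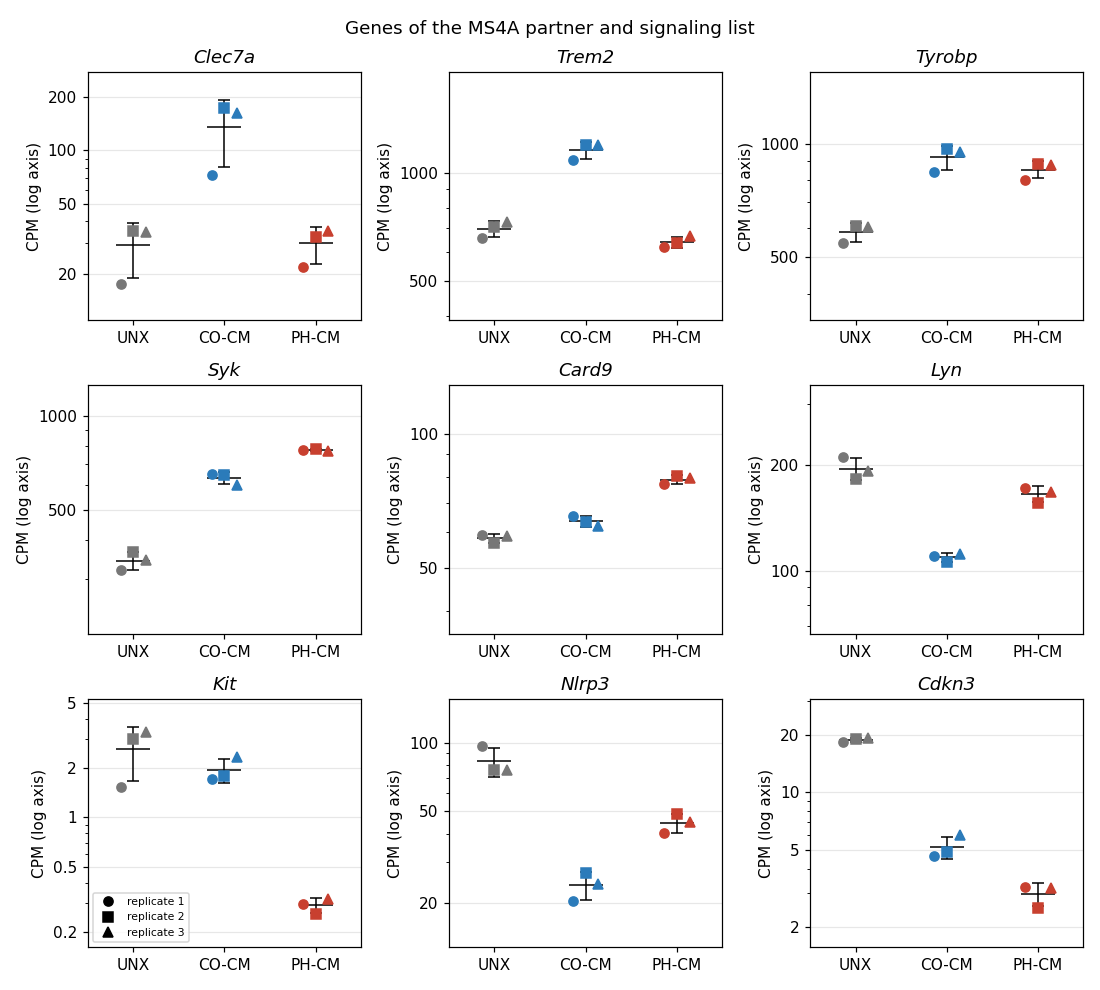
CPM (log axis) of 9 genes of the partner list in the 9 libraries, with mean and SD of 3. Clec7a and Trem2 are highest in CO-CM, Syk and Card9 in PH-CM, and Nlrp3 and Cdkn3 are highest in UNX.

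Genes whose log2 CPM followed a member most closely over the 9 libraries are given as a description, since all libraries share 3 groups and a high r needs little more than the same order of the groups. The genes closest to Ms4a4a included Rabep2 (r = 0.998), Mef2d (0.996), Itgb7 (0.996) and Fzd1 (0.996), and 5.1% of 11945 genes had an r above 0.95 with it. Ms4a7 was closest to Epc1 (r = 0.999), Ikbkb (0.998), Kdm7a (0.997), Pbxip1 (0.997) and Zmynd15 (0.997), with 6.9% of genes above 0.95. Ms4a6b was closest to F5 (r = 0.997), Cytip (0.995), Fem1c (0.995), Got1 (0.995) and Sgms2 (0.994), with 1.8% above 0.95. Those closest to Ms4a6c were Pxn, Nr1d1, Fbxo42, Lpin2 and Cnpy3 and those closest to Ms4a6d included Clec4n, Nr1d1, Clec4d and Lpin2, all with r of 0.996 or 0.997, and each had 2.6% of genes above 0.95. Nr1d1 and Lpin2 stood in both lists. Ms4a14 had an r of 0.994 with Ms4a4a and 0.992 with Ms4a7.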

How the data were processed

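The 9 libraries of mouse BMDMs were grouped as UNX, CO-CM and PH-CM from their labels, 3 per group. The authors used STAR for alignment to GRCm38 and featureCounts 1.6.2 for counting over exons, and deposited unscaled counts of whole reads. Of counts under 20, 81.4 to 83.8% were even in each library, so mates were taken to be counted singly. The authors also deposited RPKM, the same counts scaled to exon length and library total. Their 3 comparison tables (fold changes, p-values and FDR) were not used. Here, 11950 genes that exceeded 1 CPM in 3 or more libraries were fitted in R 4.3.3 with edgeR 4.0.16 (TMM factors, quasi-likelihood test over all 3 groups, Benjamini-Hochberg adjustment over all genes tested). CPM are TMM-scaled. Ms4a4c was fitted in a second run that added it to that set. Each SE is the size of the log2 fold change divided by the square root of the F statistic of the quasi-likelihood test. The F statistic takes its spread from all 9 libraries. For members the SE is given as a description only. A call needs an adjusted p of at most 0.05 and a fold of at least 1.2. On simulated counts for 11778 genes, PH-CM against UNX, the procedure recovered 86 of 93 genes changed by a log2 of 1. It recovered 98 of 98 changed by 2 and made 16 false calls. The simulation changed far fewer genes than were called in the data and drew the libraries independently. It therefore did not cover a large share of changed genes or links between same-numbered libraries. Symbols and identifiers come from the deposited tables and 53274 of 53465 identifiers matched the reference. Coordinates and exons come from GENCODE M21 (GRCm38) and upstream bases from RefSeq.

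The members and lists were chosen with earlier results of these data known. The text names all 6 members, all genes of the 2 lists, the 3 neighbours with the largest fold among those called in each comparison, and for each expressed member the 5 genes with the highest correlation, some of which are not reported here. Same-numbered libraries of different groups deviated together (r from 0.276 to 0.484 in all 9 pairs), which was taken as pairing, although no label ties a number to a repeat. The main fit, which gave the SE and adjusted p above, did not use this pairing. The replicate block below did. No replicates agreed within sampling noise (chi-square per gene of at least 10.6). The p-values measure the spread between repeats of the experiment, which were taken as repeats of the culture. Intervals and limits from reads cover counting error only. Alternatives were DESeq2 1.42.0 (size factors and test), other factors, filters and thresholds, halved counts, the difference of mean log2 RPKM plus 1, only the 2 groups compared, edgeR's exact test, each replicate left out and a replicate block.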

Additional observations from a re-analysis of the deposited data

How the results depend on the processing

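Over all alternatives, 488 values stayed near the main one, and no called value reversed. For a member this means within the replicate spread. For a list it means an equal number of calls or one within a set ratio, and the genes behind that number could change. Another 12 member values moved by more than the spread in the same direction, and 4 numbers of calls rose beyond the ratio. The uncalled Ms4a4c value for CO-CM against UNX (0.15) fell below 0 without UNX replicate 1 (-0.02), UNX replicate 3 (-0.04), CO-CM replicate 2 (-0.05) or CO-CM replicate 3 (-0.15). With log2 of RPKM plus 1, where the added 1 shrinks low genes, the log2 fold changes for PH-CM against UNX were 5.16 (Ms4a4a), 0.22 (Ms4a4c), 2.57 (Ms4a6b), 1.93 (Ms4a6c), 1.93 (Ms4a6d) and 2.22 (Ms4a7). Those for CO-CM against UNX were 2.52 (Ms4a4a), 0.45 (Ms4a6c) and 1.46 (Ms4a7), and that of Ms4a6b for PH-CM against CO-CM was 2.47. With library size alone, Ms4a6c was at 2.02 and Ms4a6d at 1.95 for PH-CM against UNX. With no filter or with filterByExpr, 2 other MS4A genes were called in PH-CM against UNX, since Ms4a4b was then tested (log2 fold change 1.33 and 1.34, adjusted p = 0.000370 and 0.000974). With no fold threshold, 12 neighbours were called in PH-CM against UNX and 10 in PH-CM against CO-CM.

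With the replicate block, Ms4a4a was at 5.94 for PH-CM against UNX and no call on a named gene changed. The neighbour Tkfc lost its call for CO-CM against UNX (0.26), which left 7, and was also not called with library size alone, no filter, filterByExpr or 5 of the 9 single libraries left out. Some calls near the fold required changed when 1 library was left out. Syk for PH-CM against CO-CM was at 0.26 without CO-CM replicate 3, and Adam17 at -0.24 without CO-CM replicate 2. Lyn for PH-CM against UNX became a call without UNX replicate 2 (-0.30), without UNX replicate 3 (-0.26) and without PH-CM replicate 1 (-0.27), and also with library size alone (-0.30), with no filter (-0.29) and with filterByExpr (-0.28). Adam17 for PH-CM against UNX lost its call with these 3 (0.22, 0.24 and 0.24) and without UNX replicate 3 (0.23). Kit for CO-CM against UNX became a call without UNX replicate 1 (-0.71, adjusted p = 0.00528). Ms4a4c rested on 16 to 66 reads per library.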
